A study of Mus musculus with 6 samples.

Results

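The probes described here read a 10 Mb stretch of mouse chromosome 7, from 25 to 35 Mb on build mm9, in testis RNA of mice with and without Gipr. Gipr encodes the receptor for the gut hormone GIP, and its own probe lies outside the stretch, at chr7:19742486-19742545. The members are the non-control probes whose start falls between 25 and 35 Mb, without Map4k1, Gapdhs and names starting with Zfp, Vmn1r or Psg. This rule kept 448 of the 502 probes of the stretch, out of 55681 probes on the array. They carry 342 names. The stretch was picked with the differences between these same knockout and wild-type arrays in view, so the differences are a description of these arrays.

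Both groups were C57BL/6 mice of 8 weeks: 3 Gipr knockouts (Gipr-/-) and 3 wild types (Gipr+/+), with whole testis on 1 single-colour Agilent array per animal. The labels name no targeted exon, embryonic stem cell line, backcross or litter, and these were not analysed here. The Gipr probe gave processed signals of 155, 145 and 176 in the knockouts and 782, 820 and 1043 in the wild types, 5.58-fold lower in the knockout (limma adjusted p = 0.00311). Of the stretch, the 25 Mb edge lies 5.26 Mb from that probe and the 35 Mb edge 15.3 Mb.

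All 6 arrays lie on 1 slide, the knockouts in row 1 and the wild types in row 2, and row and genotype cannot be told apart. Well above background were 70.6% to 76.0% of the spots per array, and 0 were saturated. All 7 germ cell markers and 4 of 5 Sertoli markers were well above background on every array, and Amh was not. Wild-type replicate 1 stood apart at Dmkn and Fam187b, where it read at or near the knockout level. With 3 arrays of each genotype, their number limits the precision.

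Proximal mouse chromosome 7 is dense in gene families that arose by local copying, so relatives lie side by side. The stretch holds Ly6 and uPAR proteins, which are small cysteine-rich proteins of the cell surface, carcinoembryonic antigen adhesion proteins, cytochrome P450 enzymes of the Cyp2 family, galectins that bind sugars, Fxyd regulators of the sodium pump and secretoglobins of the androgen-binding protein family. Between these families lie genes that every cell uses, for ribosomes, proteasomes, splicing and transcription. Several of the local genes are known for testis, among them Tex101, Lypd4, Ggn and the Catsperg subunits of the sperm calcium channel.

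The sequences that carry the account are those of the probes that differ most clearly, given as the first 30 of their 60 bases as the files list them, 5′ to 3′.
Lypd5: tttaaaaatgatgtgaaaataagagctgca
Kcnn4: gccacatagctccacatgaactcacagaag
Fcgbp: gtggaaactttgatggggaccaaaccaacg
Sirt2: cagacaacaggctaccccaaaacccctaac
Lgals7: cacttccgaggttgtcttcaacaccaaaga
1110035H17Rik: atttgccagctaatgtttctgccaaactgg

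A second set is shown because 3 probes of 1 gene, Lgals4, did not read alike. Capitals mark letters that the second and the third probe have in common within the part shown.
Lgals4, start 29626555: agcaccttttcgacttctcccatcggttcc
Lgals4, start 29626658: tccTGGGGAAGGAAGCAGAAAGATCCCCGA
Lgals4, start 29626661: TGGGGAAGGAAGCAGAAAGATCCCCGAgtt

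Of the 448 probes, 356 were tested, which needed a signal well above background throughout the 3 arrays of a genotype. The other 92 were too dim for that, and 57 of them were well above background on 0 arrays. Among the tested probes, 348 were above background on all 6 arrays, 6 entered through the knockout alone and 2 through the wild type alone. RefSeq gives a gene symbol for 308 members, 288 of them protein coding, and 140 carry only the name in the files. Levels are log2 processed signal relative to each array's 75th percentile, so a level above 0 is brighter than 3 in 4 of the spots, and levels of different probes are not compared. Differences are knockout minus wild type in log2 units with a moderated standard error (SE).

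Most of the stretch read alike in both genotypes, and a small set of scattered probes did not. Kcnn4 and 1110035H17Rik fell in the knockout. Lypd5 read lower in the knockout by about as much, Fcgbp, Cyp2g1, Cd177, Lgals7 and Sirt2 read higher, and these did not pass the threshold. Of the 356 tested probes, 265 differed by less than 0.2 log2 units.

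By adjusted p, 2 of the 356 tested members were called lower and 0 higher. Over all 38884 tested probes of the array, 16 were called lower (0.0411%), 2 higher (0.00514%) and 18 in all (0.0463%). A difference of at least 1.5-fold with no overlap between the genotypes was found for 11 members (3.09%), 6 lower and 5 higher, against 0.429% lower, 0.486% higher and 0.916% in either direction over all tested probes. The genotypes did not overlap, at any size of difference, for 78 members (21.9%), against 13.4% of all tested probes. An unadjusted limma p under 0.05 was given to 60 members, against 7.66% of all tested probes. Nothing is read from these shares, since the stretch was chosen on this contrast. The median difference was 0.00 among the members and 0.01 over all tested probes. In size, regardless of sign, the median was 0.10 and 0.09, and the 90th percentile 0.41 and 0.28.

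**Figure D1:**
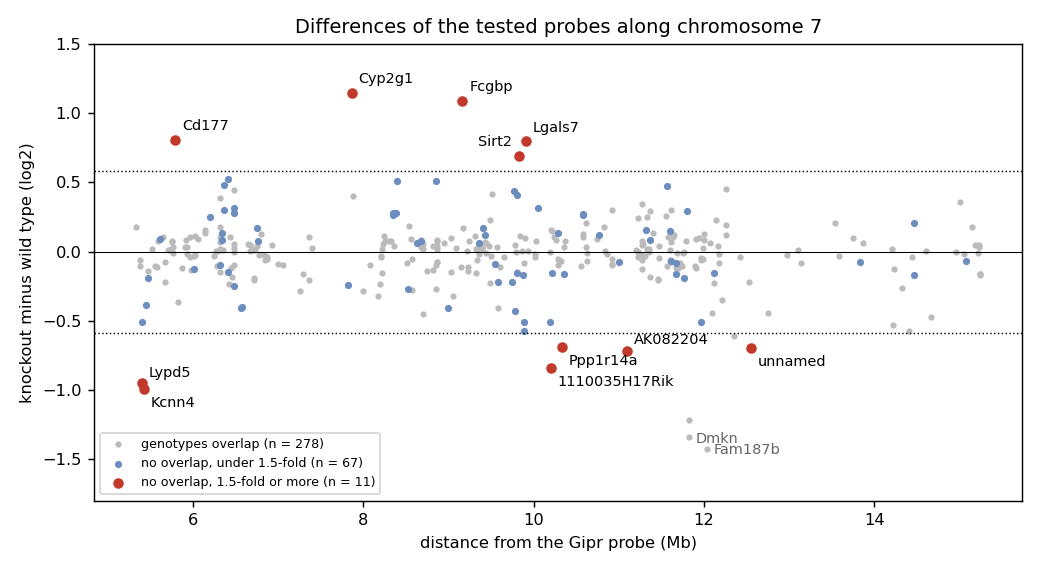
Difference of each of the 356 tested probes (knockout minus wild type, log2, vertical axis) against its distance from the Gipr probe (Mb, horizontal axis); dotted lines mark 1.5-fold in each direction and each point is 1 probe. The 11 large points are the probes past 1.5-fold whose genotypes do not overlap, 6 lower and 5 higher, with the farthest at 12.6 Mb, and the pale points below them at Dmkn and Fam187b overlap.

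At the proximal edge, 2 adjacent genes read lower. Kcnn4 encodes a calcium-activated potassium channel of blood and epithelial cells. Its probe read -5.39, -5.20 and -5.43 in the knockouts and -4.41, -4.40 and -4.25 in the wild types. The genotypes do not overlap, and the 3 knockouts lie close together. Kcnn4 fell 1.99-fold with a 95% interval of 1.71 to 2.31, a difference of -0.99 ± 0.09 (limma adjusted p = 0.0486). The signal is dim, with processed values of 17.8 to 19.6 in the knockouts and 34.9 to 40.6 in the wild types. With normexp, a background correction that shrinks differences of dim spots, the difference was -0.29 and the call was lost, and it was lost without any 1 of the 6 arrays. Over 14 alternatives the adjusted p lay between 0.0199 and 0.430 and was under 0.05 in 4. The positions that the files give for this probe span 599 bases of the genome for a probe of 60 bases.

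Lypd5, a member of the Ly6 and uPAR family, is read at chr7:25138766-25138825. The knockouts gave -2.26, -2.39 and -2.57 and the wild types -1.51, -1.45 and -1.40. Here too the 2 sets of arrays lie apart, by more than the spread within either. The difference was -0.95 ± 0.09, or 1.94-fold lower with an interval of 1.66 to 2.26 (limma adjusted p = 0.0611), and the adjusted p was under 0.05 in 4 of 14 alternatives. A probe listed in the files as 2310011E23Rik, which RefSeq names Lypd5, lies on the opposite strand and read -0.51 ± 0.16, with levels of -4.79, -5.02 and -4.55 in the knockouts and -4.18, -4.13 and -4.53 in the wild types. Smg9, a factor of nonsense-mediated RNA decay next to Kcnn4, had probes at -0.38 ± 0.07 and -0.19 ± 0.07, both without overlap.

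Further along, Cd177, a surface protein of neutrophils, read higher at levels near the background. Its values were -5.70, -5.54 and -4.83 in the knockouts against -6.37, -6.37 and -5.77 in the wild types. The lowest knockout lies 0.06 above the highest wild type, and replicate 3 is the highest of both genotypes. It was 0.81 ± 0.27 (limma adjusted p = 0.639) and 0.54 without knockout replicate 3. The probe was well above background on all 3 knockout arrays and on 1 wild-type array. Of the leukocyte markers, all 7 read lower in the knockout, by a median of -0.27, with summed levels of 4.44 to 5.51 in the knockouts and 5.50 to 6.41 in the wild types. The blood markers Hba-a1, Hbb-b1 and Alas2 summed to 8.15 to 17.2 in the knockouts and 7.23 to 10.5 in the wild types, which overlap. The part of either list in the Cd177 and Kcnn4 results was not tested. In whole testis, fewer cells of a type and less RNA per cell cannot be told apart.

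Cyp2g1, a cytochrome P450 of olfactory tissue, was also near the background. The knockouts gave -4.83, -4.70 and -5.50 and the wild types -5.93, -6.67 and -5.87. The values spread by 0.80 and 0.81 log2 units within the genotypes, and the genotypes lie 0.36 apart. The difference was 1.15 ± 0.29 (limma adjusted p = 0.559). The probe was well above background on 3 knockout arrays and 1 wild-type array, so no fold is given, and with normexp the difference was 0.25.

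Fcgbp encodes a large mucin-like protein that binds the Fc part of IgG. Its probe at chr7:28905517-28905576 gave -1.33, -1.64 and -1.75 in the knockouts and -2.63, -2.76 and -2.62 in the wild types. The wild types lie within 0.14 of each other and well below every knockout. The difference was 1.09 ± 0.12, or 2.13-fold higher with an interval of 1.75 to 2.60 (limma adjusted p = 0.105), and the adjusted p was under 0.05 in 3 of 14 alternatives. A second Fcgbp probe, 32.5 kb away, was well above background on 0 arrays and was not tested.

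**Figure D2:**
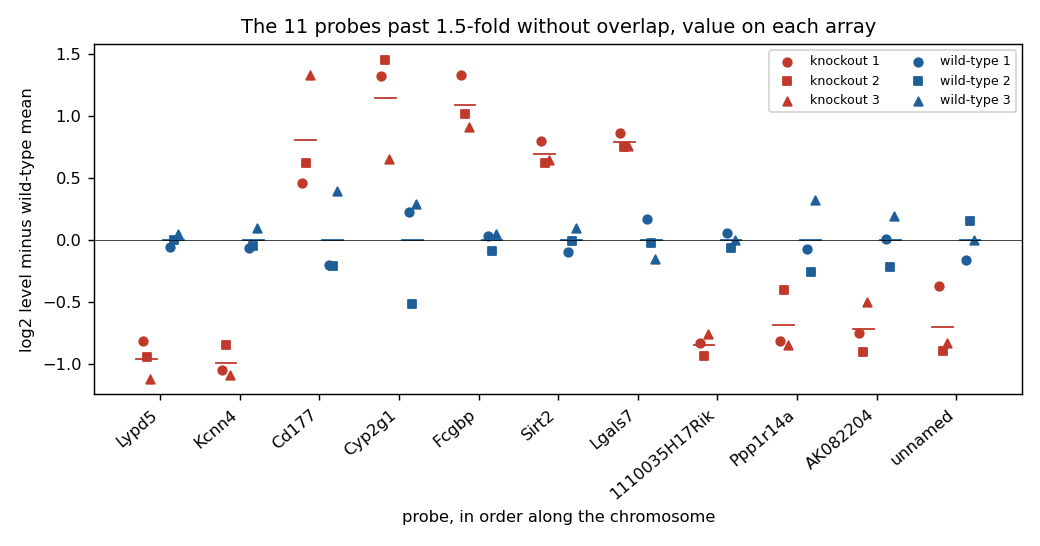
Level on each array minus the wild-type mean (log2, vertical axis) for the 11 probes past 1.5-fold without overlap, in order along the chromosome, with short bars at the mean of each genotype. The gap between the genotypes is 0.87 for Fcgbp, 0.79 for Kcnn4 and 0.70 for 1110035H17Rik, and 0.06 for Cd177 and 0.14 for Ppp1r14a.

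Several differences of both signs lay between 29.50 and 29.66 Mb, a run picked after its values were seen. There, 9 of 16 tested probes did not overlap between the genotypes, 4 higher and 5 lower, within 141 kb, against 13.4% of all tested probes. Sirt2 is an NAD-dependent deacetylase. Its probe read 4.67, 4.49 and 4.51 in the knockouts and 3.77, 3.86 and 3.96 in the wild types. In processed signal this is 16094 to 19998 against 10070 to 12005. The difference was 0.69 ± 0.08, or 1.62-fold higher with an interval of 1.41 to 1.86 (limma adjusted p = 0.151).

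Lgals7, the galectin of stratified epithelia, lies at the distal end of that run. The knockouts gave -2.86, -2.97 and -2.96 and the wild types -3.55, -3.75 and -3.88. The difference was 0.80 ± 0.10, or 1.74-fold higher (limma adjusted p = 0.152). Its neighbour Lgals4, a galectin of gut epithelium, read the other way in 2 of its 3 probes. The overlapping pair shown above shares 57 of 60 bases and gave -0.51 ± 0.12 and -0.57 ± 0.11, both without overlap. The first Lgals4 probe, 103 bases upstream of the pair, gave -0.08 ± 0.12 and overlapped. All 3 are assigned to the same transcript in the files.

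In the same run, proximal to Sirt2, Mrps12, a protein of the mitochondrial ribosome, read 2.79, 2.77 and 2.80 in the knockouts. The wild types gave 3.21, 3.23 and 3.21. The spread within each genotype is small, and the difference was -0.43 ± 0.05 (limma adjusted p = 0.169). Sars2, which charges mitochondrial tRNA with serine and starts 13.8 kb away, read 0.00 ± 0.07. Hnrnpl, an RNA-binding splicing regulator, also read 0.00 ± 0.06. Nfkbib, an inhibitor of NF-kB, had 1 probe at 0.41 ± 0.08 and 2 at -0.15 (SE 0.07 and 0.09). Fbxo17, an F-box protein, had 1 probe at 0.44 ± 0.12 and 1 at 0.04 ± 0.08. Differences of either sign and of 0 were therefore interleaved within this run, also between probes of a single gene.

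The second called member, 1110035H17Rik, lies at chr7:29941849-29941908 and carries a RIKEN clone name with no described function here. Its probe read 0.52, 0.42 and 0.60 in the knockouts and 1.41, 1.29 and 1.35 in the wild types. The genotypes are separated by 0.70, more than the whole range within either. It fell 1.79-fold with an interval of 1.58 to 2.02, a difference of -0.84 ± 0.07 (limma adjusted p = 0.0449). The call held in 6 of 14 alternatives and was lost without any 1 of the 6 arrays, with adjusted p from 0.000947 to 0.340. Fam98c, on the opposite strand with its probe 4.32 kb away, read 5.22, 5.31 and 5.20 in the knockouts and 5.71, 5.83 and 5.73 in the wild types, a difference of -0.51 ± 0.07 (limma adjusted p = 0.180).

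Beyond 30 Mb the 3 probes past 1.5-fold without overlap were all lower. Ppp1r14a, an inhibitor of myosin phosphatase in smooth muscle, gave -0.42, -0.01 and -0.46 in the knockouts and 0.32, 0.13 and 0.71 in the wild types. Its genotypes come within 0.14 of each other, and the difference was -0.69 ± 0.19 (limma adjusted p = 0.582) and -0.52 without wild-type replicate 3. The smooth muscle markers Acta2 and Myh11 summed to 8.19 to 10.2 in the knockouts and 8.43 to 8.99 in the wild types. They overlap, and both read higher in the knockout on average, with 0 called. The transcript AK082204 gave -4.69, -4.84 and -4.44 against -3.92, -4.15 and -3.74, a difference of -0.72 ± 0.14 (limma adjusted p = 0.463). The last, A_55_P2038643 at 32.3 Mb, has no gene name and was well above background on 1 knockout array and 3 wild-type arrays, with a difference of -0.70 ± 0.16 (limma adjusted p = 0.501).

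Of the 11 probes, 9 lie on the plus strand, against 186 of the 356 tested, and 8 belong to protein-coding genes. Of the 11, Cd177, Cyp2g1 and A_55_P2038643 passed the filter only through the genotype where they are high, and 8 remained with probes above background on all 6 arrays (2.30% of those tested, against 0.475% of all probes so kept).

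Smaller differences without overlap, named after their values were seen, include several genes away from those runs. Sptbn4, a spectrin of axons, read 0.51 ± 0.08 (limma adjusted p = 0.318). Tmem145 read 0.48 and 0.30 in its 2 probes. Ceacam2, an adhesion protein, read -0.41 and -0.40 in its 2 probes, which start 10.2 kb apart. Hamp2, a hepcidin gene, read -0.51 ± 0.11 near the background. Strands are those of the listed probe positions. Whether a probe over antisense or overlapping genes reads only its own strand was not tested.

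The largest differences among the members overlapped, at Dmkn and Fam187b. Dmkn encodes dermokine, a secreted protein of epidermis. Its first probe, at chr7:31566013-31566072, gave -2.68, -2.59 and -2.30 in the knockouts and -2.38, -0.69 and -0.48 in wild-type replicates 1, 2 and 3. Wild-type replicate 1 lies inside the knockout range and the other two lie far above it. A second Dmkn probe, which shares 55 bases with the first, gave -2.86, -2.87 and -2.65 against -2.96, -0.96 and -0.81. The differences were -1.34 ± 0.49 and -1.22 ± 0.56 (limma adjusted p = 0.639 and 0.653).

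Fam187b, a membrane protein gene that the germ cell list holds, starts 208 kb from Dmkn and showed the same arrangement of arrays. It read 1.79, 2.03 and 1.59 in the knockouts and 2.01, 3.83 and 3.84 in the wild types. The difference was -1.42 ± 0.50 (limma adjusted p = 0.639). Without wild-type replicate 1 the differences were -1.94 and -1.91 for Dmkn and -2.03 for Fam187b, and these 3 probes were then the only members called (limma adjusted p = 0.0331, 0.0114 and 0.0282). Over all probes 26 were called in that fit, 13 of them on chromosome 7. The 3 were chosen for this after their values were seen, and that comparison rests on 2 wild-type arrays.

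Between and around them, most of the 23 tested probes from 31.5 to 31.9 Mb read alike in all animals. Among those that did not, Hamp2, which lies between Dmkn and Fam187b, read -0.51 ± 0.11 without overlap, near the background. Fxyd1 read -0.45 ± 0.17 with overlap. Ffar3 and Ffar1, receptors for fatty acids, read -0.10 ± 0.12 and -0.11 ± 0.18. Cd22 and Mag, immunoglobulin-like receptors of B cells and myelin, read 0.09 ± 0.08 and 0.10 ± 0.07. Sbsn, suprabasin of epidermis, gave 1.52, 1.54 and 1.63 in the knockouts and 1.49, 1.15 and 1.18 in the wild types, so wild-type replicate 1 again sits by the knockouts, here with the other two lower.

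**Figure D3:**
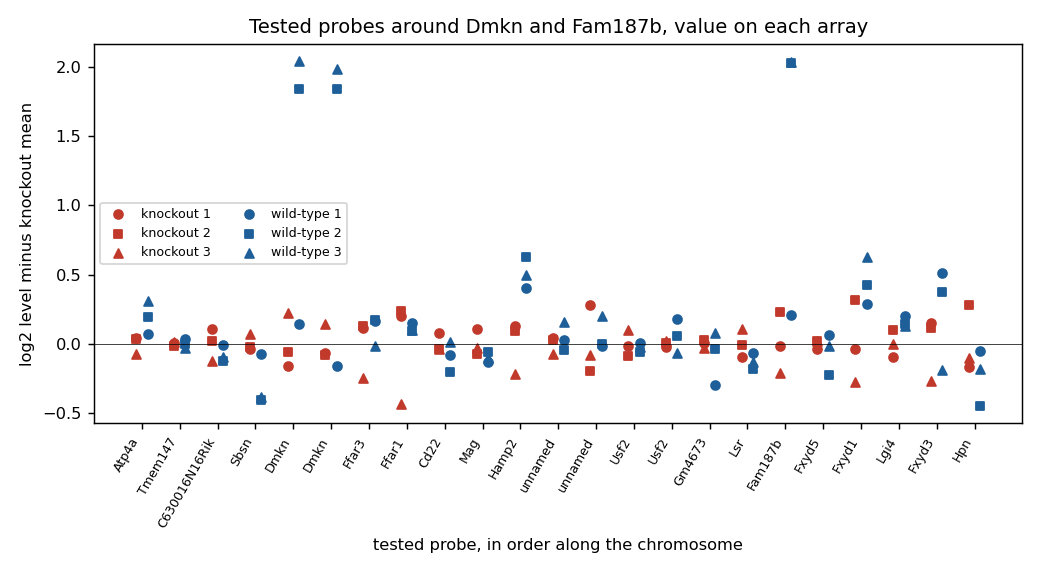
Level on each array minus the knockout mean (log2, vertical axis) for the 23 tested probes from 31.5 to 31.9 Mb, in order along the chromosome. At both Dmkn probes and at Fam187b, wild-type replicates 2 and 3 stand about 2 units up and wild-type replicate 1 stays with the knockouts.

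The secretoglobins, whose local members encode subunits of androgen-binding protein, hold 21 probes of which 6 were tested. The genes of this family are close in sequence, so a probe may read more than 1 of them. Scgb2b20 gave 2.72, 2.33 and 2.11 in the knockouts and 2.57, 3.16 and 3.15 in the wild types. The difference was -0.57 ± 0.22 (limma adjusted p = 0.639). Scgb2b2, Scgb2b7 and Scgb2b23-ps gave -0.61 ± 0.20, -0.44 ± 0.23 and -0.47 ± 0.23. In all 4 probes knockout replicate 1 was the highest knockout, wild-type replicate 1 was the lowest wild type, and the first exceeded the second. Scgb1b3 and Scgb2b17, the other two, read -0.04 ± 0.08 and 0.06 ± 0.08. Leaving out wild-type replicate 1 brought those 4 past 1.5-fold without overlap, as did leaving out knockout replicate 1.

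Without wild-type replicate 1, 24 members were past 1.5-fold without overlap, 18 lower and 6 higher (6.67% of those tested, against 1.59% of all tested probes in that fit). Without knockout replicate 1 there were 19, 12 lower and 7 higher (5.32% against 1.47%). Leaving out each of the other 4 arrays gave 12 to 14, which is 3.36% to 3.89% of the members tested, against 1.52% to 2.13% of all tested probes.

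Probes of the same gene were set side by side where a gene had 2 or more tested. Of 59 such genes, 38 had differences of 1 sign, with a median spread of 0.10 between the lowest and the highest. For 13 genes with a probe of at least 0.3 in size, 10 had 1 sign and the median spread was 0.37.

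**Figure D4:**
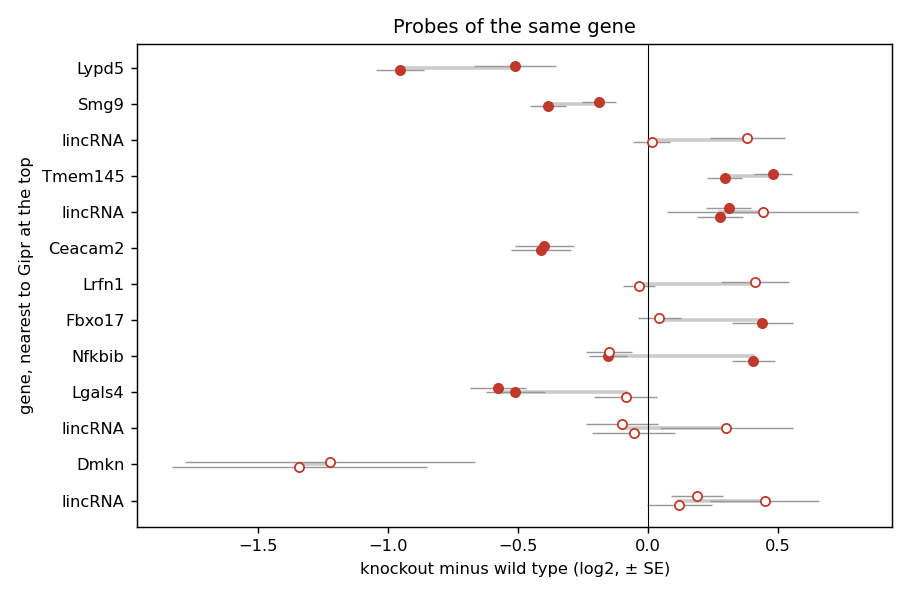
Difference of each tested probe (knockout minus wild type, log2, with SE bars, horizontal axis) for the 13 genes or transcripts with 2 or more tested probes and at least 1 probe of 0.3 or more in size; filled points are probes whose genotypes do not overlap. Ceacam2 and Smg9 keep 1 sign across probes and Nfkbib holds both signs, while the probe pairs of Dmkn and of Tmem145 start 5 bases apart and those of Lypd5 lie on opposite strands.

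Gene families of the stretch were described from lists, with each gene read by its brightest tested probe. Of the Ly6 and uPAR family 7 genes were tested, 2 lower and 5 higher with a median of 0.02. Apart from Lypd5 and Cd177, they lay close to 0, as for Tex101, a germ cell surface protein, at 0.01 ± 0.11 and Lypd4, a sperm protein, at 0.03 ± 0.07. Of the Cyp2 enzymes 7 were tested, 6 lower and 1 higher (Cyp2g1) with a median of -0.20. Cyp2b19, an epidermal P450, read -0.24 ± 0.08 and Cyp2t4 -0.23 ± 0.11. Both carcinoembryonic antigen genes tested read lower, with a median of -0.38.

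Among 10 ion channels and transporters, 5 read lower and 5 higher, with Kcnn4 the 1 called. Ryr1, the calcium release channel of skeletal muscle, read 0.31 ± 0.07 without overlap (limma adjusted p = 0.484). Fxyd1, phospholemman, read -0.45 ± 0.17 (limma adjusted p = 0.639). Of 11 immune genes, 3 read lower and 8 higher with a median of 0.04, and apart from Fcgbp none reached 1.5-fold without overlap. Tyrobp and Hcst, adaptors of myeloid and natural killer receptors, read -0.21 ± 0.21 and -0.20 ± 0.20.

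Of the 9 germ cell genes tested, 3 read lower and 6 higher, with a median of 0.03 and 0 called. The list holds Fam187b at -1.42 ± 0.50, and the other 8 differed by less than 0.2. Ggn, gametogenetin, read 5.16 ± 0.11 in the knockouts and 5.02 ± 0.09 in the wild types (SD, n = 3 each). Catsperg1 differed by 0.10 ± 0.07. The germ cell markers used as a check summed to 1786 to 1992 in the knockouts and 1830 to 1968 in the wild types, which overlap.

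Of 8 protein kinases, 3 read lower and 5 higher with a median of 0.03. Akt2, a kinase of insulin signalling, read 0.08 ± 0.06, Gsk3a, which acts on glycogen synthase, 0.00 ± 0.06 and Pak4 -0.11 ± 0.07. Of 19 genes of RNA, protein and energy machinery, 8 read lower and 11 higher, with a median of 0.01. Apart from Mrps12, none of them reached 0.2 in size: Psmd8, a proteasome subunit, read -0.15 ± 0.06 and Gpi1, a glycolytic enzyme, -0.17 ± 0.10. Over all tested probes 0.0463% were called, and of these lists Kcnn4 was the only gene called.

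Long intergenic noncoding RNA probes make up 50 of the 448, and 32 of them were tested. None was past 1.5-fold without overlap or called, against 0.916% and 0.0463% of all tested probes. With 32 probes, nothing about these RNAs is read from that. The tested member nearest the proximal edge reads the transcript CO807821 at 25.07 Mb, with 0.17 ± 0.11. Also just inside that edge, 2 Zfp93 probes, left out by name, read -1.19 ± 0.10 and -1.44 ± 0.10 without overlap. Just outside it, Zfp111 at 24.98 Mb read -0.23 ± 0.08 without overlap. The 2 Zfp114 probes at 24.97 Mb read -0.92 ± 0.08 without overlap and -0.24 ± 0.15 with overlap, and Zfp235 at 24.93 Mb read 0.14 ± 0.11 with overlap. Nearest the distal edge are 3 probes of Gpi1, at -0.16 to -0.17, and just outside it LOC676974 read -0.21 ± 0.10, Garre1 0.06 ± 0.09 and Gm12758 0.36 ± 0.11, the last without overlap.

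Of the regions compared, the share of probes past 1.5-fold without overlap was highest from 15 to 25 Mb, the region that holds Gipr, and uneven farther out. From 15 to 25 Mb it was 9.26% of 162 tested probes, from 25 to 30 Mb 3.74% of 214 and from 30 to 35 Mb 2.11% of 142. From 35 to 45 Mb it was 3.77% of 53 probes, that is 2 probes, and 0.907% on the rest of chromosome 7. On the other chromosomes it was 0.806%. For probes without overlap at any size the shares were 39.5%, 25.2%, 16.9%, 24.5%, 12.1% and 13.1% in the same order. The regional shares leave out the same names as the members, and the share from 15 to 25 Mb includes the Gipr probe itself. Of the 46 tested probes left out by name in the stretch, 17.4% were past 1.5-fold without overlap, against 0.916% of all tested probes. By adjusted p, 10.9% of the 46 were called, against 0.0463%. These shares were not tested against each other.

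The median within-genotype SD of the members, 0.10 in the knockouts and 0.09 in the wild types, was below that over all tested probes, 0.11 and 0.10. The members were also brighter, with a median level of 0.13 against -1.46 over all tested probes. The part of brightness in the SD and in the shares without overlap was not tested.

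In windows of 1 Mb, the end of the changes fell at 33 Mb, 13.3 Mb from Gipr, where the end is the first of 3 windows in a row at or below the share over all tested probes. The windows that set this end hold 8, 19 and 15 tested probes, and the window before them, at 32 Mb, holds 8 with 1 past 1.5-fold, so the end rests on thin windows. With only windows of at least 20 tested probes it moved to 49 Mb. The windows at 26 and 31 Mb, with 52 and 72 tested probes, held 0 past 1.5-fold, while those at 25, 29 and 30 Mb held 3, 3 and 2 of 42, 56 and 35. The farthest called member, 1110035H17Rik, lies 10.2 Mb from Gipr, and the farthest past 1.5-fold without overlap 12.6 Mb. That farthest probe, A_55_P2038643, passed the filter through the wild type alone and is the 1 probe past 1.5-fold in the window at 32 Mb. With probes above background on all 6 arrays the end fell at 31 Mb.

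Past 35 Mb, Nudt19, a coenzyme A hydrolase, at 36.3 Mb read -0.80 ± 0.23 and Gm6818 at 39.2 Mb read 2.03 ± 0.49 (limma adjusted p = 0.595 and 0.535). The mean level of Gm6818 was -3.81 in the knockouts and -5.84 in the wild types, the latter near the background. In the window at 36 Mb, 42.9% of 21 tested probes did not overlap, against 13.3% of 15 at 35 Mb, 14.3% of 7 at 38 Mb and 13.4% of all tested probes. The end moved from 33 Mb to 50 Mb without knockout replicate 1 and to 52 Mb without wild-type replicate 1, and stayed at 33 Mb without any 1 of the other 4 arrays.

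**Figure D5:**
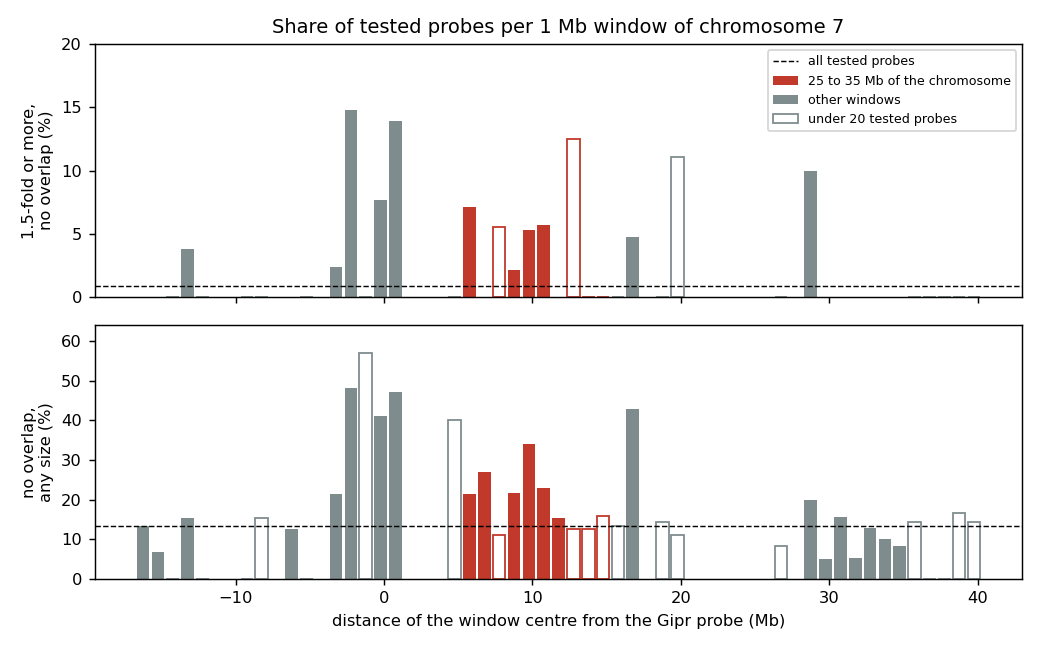
Share of tested probes (%, vertical axes) past 1.5-fold without overlap (upper panel) and without overlap at any size (lower panel) in 1 Mb windows, against the distance of the window centre from the Gipr probe (Mb, horizontal axis); open bars are windows with under 20 tested probes, windows with under 5 are not drawn, and dashed lines are the shares over all tested probes, 0.916% and 13.4%. In the upper panel some bars around Gipr are high, and the window at 18 Mb, with 7 tested probes, holds 0 past 1.5-fold. In both panels the bars are uneven from 25 to 35 Mb, and some windows farther out are high again.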

How the data were processed

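Per the file headers, the authors read the arrays (Agilent design 028005) with Feature Extraction 10.7.3.1, also named in the submitters' processing notes, which gives a background-corrected intensity per spot on a linear scale. Per the labels' protocols, 100 ng of total RNA was labelled with Cy3. Probe positions are the files' own, on mm9. RefSeq symbols (GRCm38) served for names; 307 of 308 matched members lie on chromosome 7 there. Sequences are those in the deposited files.

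The log2 of the deposited intensity was taken without outlier spots (117 to 149 per array), spots of a probe were averaged, and each array's 75th percentile was subtracted, for 55681 probes less 13 without a value on some array. The 38884 probes well above background on all 3 arrays of a genotype entered limma 3.58.1 (R 4.3.3; lmFit, eBayes, two-sided, no covariates), with Benjamini-Hochberg adjustment over all of them and a threshold of 0.05. With 3 against 3 arrays an exact permutation test of 1 probe cannot go below p = 0.1. The script was tested on simulated data. The members and lists were chosen with earlier results of these data known. The rule for naming took the markers Kcnn4, Lypd5 and Fcgbp, every called probe, up to 12 genes per direction past 1.5-fold without overlap, the edge genes and up to 3 genes of lowest p per list. Other genes, such as neighbours, further probes and further list members, were named after their values were seen. Of the 54 probes of the stretch left out by name, the 46 tested are in the fit and in the shares over all probes, and in 1 alternative for the end.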

Additional observations from a re-analysis of the deposited data

How the results depend on the processing

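The count of called members was 2 on all arrays, with 18 called over all tested probes. It was 0 with the replicate block (6 over all tested probes) and 0 without a filter on dim probes (7 over all). It was 5 with array weights (29 over all), 7 with normexp background correction (30) and 8 with trend and robust eBayes (35). Leaving out 1 array gave 0 to 3, with 4 to 26 over all tested probes. The count past 1.5-fold without overlap was 11 (3.09% of the members tested, against 0.916% of all tested probes). It was 5 with normexp (1.40% against 0.136%) and 2 at 2-fold (0.562% against 0.201%). Without a filter on dim probes it was 14 (3.13% against 1.99%). With 1 array left out it was 12 to 24 (3.36% to 6.67%, against 1.47% to 2.13%). The end of the changes, 33 Mb, moved to 29 Mb at 2-fold, to 31 Mb with normexp or with probes above background on all 6 arrays, to 50 Mb with 2 Mb windows and to 56 Mb without a filter on dim probes. It moved to 49 Mb with only windows of at least 20 tested probes, an alternative chosen after seeing the data, and lay between 33 and 52 Mb with 1 array left out. Quantile normalization, the deposited value list and, for the end, the probes otherwise left out by name kept each of these values within 1.5 times. For the 11 probes past 1.5-fold, 151 refits over 14 alternatives ended 18 calls, added 10 and reversed 0 directions. The absence of reversals was largely set by the choice of probes. Where genotypes do not overlap, leaving out 1 array cannot change the sign, and several refits keep the difference as it was. The causes of the moves in the counts, the calls and the end were not tested.

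The correlations of same-numbered knockout and wild-type deviations were 0.0579, -0.0239 and -0.0027, and those of other numbers lay between -0.0439 and 0.0447. Whether equal replicate numbers mark pairs cannot be told from such small values. The replicate number is also the slide column in both rows. With the number as a block 6 probes were called over all, none of them here. That fit also leaves less to estimate the error from, with or without pairs. Dim signal limits Kcnn4, Cd177, Cyp2g1 and the unnamed probe at 32.3 Mb, whose differences were -0.29, 0.17, 0.25 and -0.18 with normexp. AK082204 and Lgals7, also at low levels, shrank as well, to -0.30 and 0.44, and were no longer past 1.5-fold.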

Other observations

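The interstitial Leydig cell markers Cyp17a1, Cyp11a1, Star and Hsd3b6 all read lower in the knockout, by a median of -0.58, with summed levels of 12.9 to 24.1 in the knockouts and 23.4 to 28.5 in the wild types and 0 called. Of the 4 epididymal markers, 1 was well above background on every array.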
